A study of Mus musculus with 10 samples.

Results

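The genes described here are 7 that kidney biology uses as marks of injured tubules: Lcn2, Spp1, Clu, Havcr1, Cd44, Sox9 and Vim. They were chosen by name, from a list of injured tubule genes, with earlier results of these data known. Counts of the 7 that rose are therefore a description. All 7 of 7 were found among the 46517 mouse genes counted in each library. Poly(A) RNA of whole mouse kidney was sequenced in 10 libraries, in a study of APOL1, the human apolipoprotein L1 gene, whose variants G1 and G2 raise the risk of kidney disease in people. The libraries fall, by their genotype label, into kidneys of mice with the G1 allele of APOL1 (n = 2), with the G2 allele (n = 2), of mice labelled wild type (single mutant) (n = 3) and of mice labelled Control (n = 3). The series title places the variants in podocytes, the epithelial cells of the glomerular filter. The labels give neither the promoter that drives the transgene nor an inducing agent, and neither strain, age nor sex of the mice. They do not explain the words single mutant. Reads of the human transgene were not used here, and no genotype label was tested with them.

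Tubule cells that are damaged lose the transporters of a working nephron and raise genes that a healthy adult tubule expresses at lower levels. Some encode secreted proteins (Lcn2, Spp1, Clu), some surface receptors (Havcr1, Cd44), 1 encodes a transcription factor of regenerating epithelium (Sox9) and 1 an intermediate filament protein (Vim). Several are known in other cells too: neutrophils carry Lcn2, macrophages Spp1, leukocytes Cd44, and fibroblasts, endothelium and podocytes Vim. In RNA of a whole kidney, more cells of a type and more RNA per cell cannot be told apart.

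Library totals ran from 27596391 to 34815153 counts. Levels are given in CPM, read counts relative to library sizes scaled by the TMM method, and a difference is called where edgeR's quasi-likelihood test, fitted over all 17823 genes that passed a filter on low counts, gave a Benjamini-Hochberg adjusted p under 0.05. All 7 genes passed that filter. The TMM factors were 1.06 to 1.17 in G1 and G2 libraries and 0.880 to 0.953 in the others, and their part in the results was tested only through the other scalings. No pair of libraries was alike within sampling noise, as chi-square per gene was at least 26.2 in every pair. Whether the libraries are from different mice is not stated, so a p-value here reflects library-to-library spread only.

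The 250 bases before the RefSeq start (GRCm38.p6, the most upstream where several are listed) are shown for Spp1, which of the 7 differed most between G2 and G1, and for Cd44, which encodes a receptor of the Spp1 protein. Capitals mark matches, on either strand, to any of 6 motifs: AP-1 (TGANTCA), NF-kB (by name only), STAT (TTCNNNGAA), C/EBP (TTGCNNAA), TEAD (GGAATG) and the TATA box (TATAAA). Each run is written 5′ to 3′ on the strand of the gene.
Spp1, plus strand, chr5:104434861-104435110: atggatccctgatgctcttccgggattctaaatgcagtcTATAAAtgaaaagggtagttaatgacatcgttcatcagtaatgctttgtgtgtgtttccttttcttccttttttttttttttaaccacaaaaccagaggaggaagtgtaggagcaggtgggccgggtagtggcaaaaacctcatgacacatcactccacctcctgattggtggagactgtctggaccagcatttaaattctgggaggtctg
Cd44, minus strand, chr2:102901666-102901915: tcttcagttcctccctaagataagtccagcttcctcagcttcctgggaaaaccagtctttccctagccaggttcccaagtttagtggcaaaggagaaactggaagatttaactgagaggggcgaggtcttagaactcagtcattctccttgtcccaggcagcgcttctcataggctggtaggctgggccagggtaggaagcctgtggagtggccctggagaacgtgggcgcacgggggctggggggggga

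In Spp1 a TATAAA match lay 211 to 206 bases before the start, and 12.4% of all 32851 promoter windows of the same length held such a match. The Cd44 window held none of the 6. The windows of Lcn2, Havcr1 and Vim overlap annotated exons of other transcripts by 197, 162 and 250 bases, so only their matches are given. Lcn2 held a C/EBP match 216 to 209 bases before its start (9.56% of all windows). Vim held a TATAAA match at 32 to 27 bases and, on the opposite strand, an NF-kB match at 223 to 214 bases (1.41% of windows). Havcr1 held no match. AP-1, STAT and TEAD matches, found in 6.75%, 7.02% and 12.6% of all windows, were in none of these 5. Clu and Sox9 are named only.

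All 7 genes were higher in kidneys with an APOL1 risk allele. Against Control, 7 of 7 rose in G1, where 19.5% of all genes tested were called higher, and 7 of 7 rose in G2, where the share over all genes was 12.7%. The median log2 fold change of the 7 was 5.16 in G1 and 3.90 in G2, beside -0.02 and 0.04 over all genes tested. These comparisons share the Control libraries. With both alleles averaged, 7 of 7 rose against Control (19.3% of all genes) and 7 of 7 against wild type (single mutant) (20.6%). Scaling by library totals alone left these 7 calls in place but turned the split over all genes, higher against lower in both alleles averaged against Control, to 6037 and 1600, beside 3441 and 3212 with TMM. For each of the 7, the lowest of the 4 risk allele libraries lay above the highest of the 6 others, which held for 16.4% of all genes tested.

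**Figure D1:**
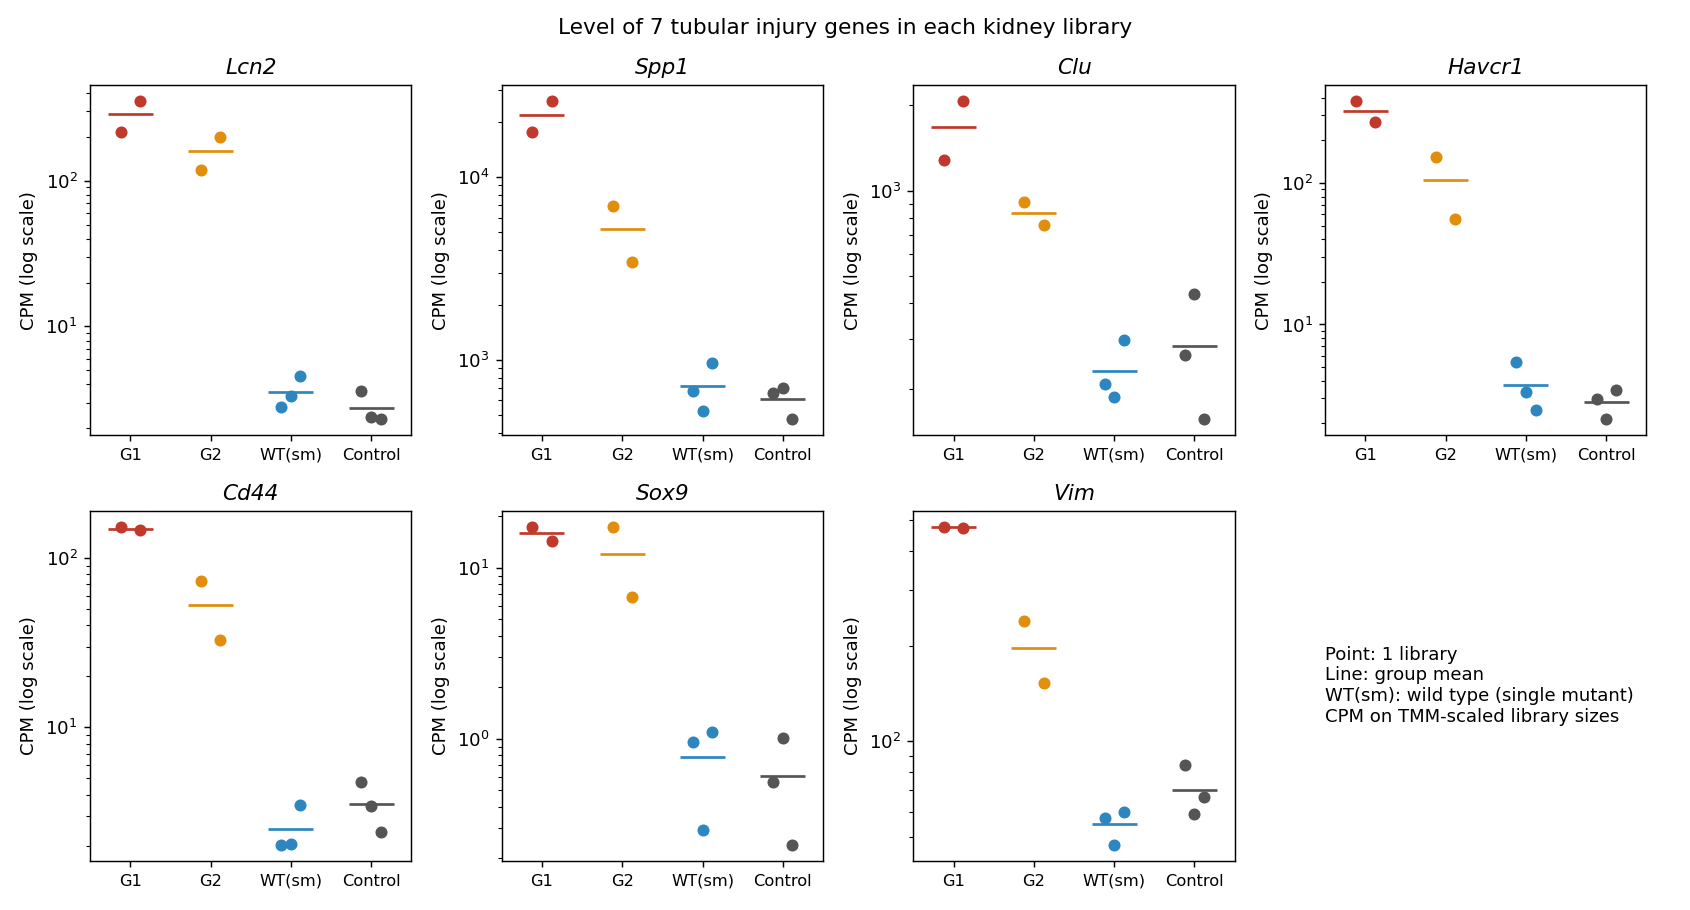
CPM of each of the 7 genes in the 10 kidney libraries, on a log axis. Each point is 1 library and each line a group mean. For every gene the 4 points of G1 and G2 lie above the 6 of wild type (single mutant) and Control, by the narrowest margin in Clu, where the lowest risk allele library is at 759 CPM and the highest other at 431 CPM.

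Among the secreted proteins, Lcn2 (ENSMUSG00000026822.13, GRCm38 chromosome 2, 32384633 to 32388252, minus strand) encodes NGAL, which binds iron-carrying siderophores and is used in urine as a sign of kidney injury. It stood at 217 and 353 CPM in G1, 119 and 201 CPM in G2, 2.81, 3.32 and 4.60 CPM in wild type (single mutant), and 3.61, 2.39 and 2.31 CPM in Control. The lowest risk allele library was thus 25.9 times the highest of the 6 others. Against Control its log2 fold change was 6.68 ± 0.36 (SE) in G1 (edgeR adjusted p = 2.14e-05) and 5.85 ± 0.35 in G2 (edgeR adjusted p = 0.000189). By size of the fold in G2, only 0.107% of all genes tested rose as far or further.

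Spp1 (ENSMUSG00000029304.13, chromosome 5, 104435118 to 104441050, plus strand) encodes osteopontin, a secreted phosphoprotein that binds integrins and CD44 and that the distal nephron of the healthy kidney also makes. It had 17622 and 26086 CPM in G1, 6925 and 3419 CPM in G2, 675, 524 and 963 CPM in wild type (single mutant), and 656, 705 and 473 CPM in Control. By count it was the most abundant of all 46517 genes in G1 replicate 2 and the second in G1 replicate 1. It ranked 8 and 9 in the G2 libraries, 93 to 279 in wild type (single mutant) and 153 to 294 in Control. The log2 fold change against Control was 5.16 ± 0.40 in G1 (edgeR adjusted p = 5.64e-05) and 3.08 ± 0.37 in G2 (edgeR adjusted p = 0.00131). Without G2 replicate 1, the higher of the pair, the G2 fold was 5.42 in place of 8.46. An unclassified transcript, Gm42793, overlaps Spp1 on the same strand, with counts equal to 0.0212% of those of Spp1.

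Clu (ENSMUSG00000022037.13, chromosome 14, 65968483 to 65981547, plus strand) encodes clusterin, a secreted chaperone. Its CPM was 1288 and 2076 in G1, 912 and 759 in G2, 208, 187 and 297 in wild type (single mutant), and 263, 431 and 156 in Control. The 3 Control libraries spread by 2.76 times, wider than the libraries of any other group. Clu had the lowest fold of the 7 in G1, with a log2 fold change of 2.57 ± 0.39 (edgeR adjusted p = 0.00131). In G2 it was 1.56 ± 0.39 (edgeR adjusted p = 0.0216). That G2 call was lost without G2 replicate 1 (edgeR adjusted p = 0.108), G2 replicate 2 (0.0529) or Control replicate 1 (0.0659), and in a fit of G2 and Control alone (0.053).

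Of the surface receptors, Havcr1 (ENSMUSG00000040405.12, chromosome 11, 46735080 to 46779578, plus strand) encodes KIM-1, a phosphatidylserine receptor with which injured proximal tubule cells take up dead cells. Its values were 380 and 268 CPM in G1, 153 and 55.3 CPM in G2, 5.41, 3.32 and 2.49 CPM in wild type (single mutant), and 2.98, 2.14 and 3.42 CPM in Control. G1 and G2 did not overlap with the other groups or with each other. The log2 fold change against Control was 6.83 ± 0.51 in G1 (edgeR adjusted p = 4.82e-05), the highest of the 7 genes, and 5.19 ± 0.48 in G2 (edgeR adjusted p = 0.000544). Without G2 replicate 1, the higher of that pair, the G2 value was 4.23, a fold of 18.8 in place of 36.6.

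Cd44 (ENSMUSG00000005087.16, chromosome 2, 102811141 to 102901665, minus strand) encodes a receptor of hyaluronan that also binds osteopontin. It was at 153 and 145 CPM in G1, 73.0 and 33.0 CPM in G2, 2.02, 2.05 and 3.47 CPM in wild type (single mutant), and 4.75, 3.44 and 2.43 CPM in Control. The G1 libraries differed by 1.05 times and the G2 libraries by 2.22 times. Its log2 fold change against Control was 5.39 ± 0.40 in G1 (edgeR adjusted p = 4.87e-05) and 3.90 ± 0.38 in G2 (edgeR adjusted p = 0.000637). Without G2 replicate 1 the G2 fold was 8.98 in place of 14.9.

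Sox9 (ENSMUSG00000000567.5, chromosome 11, 112782224 to 112787760, plus strand), the transcription factor that marks regenerating tubule cells, was the rarest of the 7. It had 664 and 573 counts in G1, 533 and 272 in G2, 28, 8 and 32 in wild type (single mutant), and 16, 28 and 6 in Control, so the low groups rest on few reads. In CPM these are 17.4 and 14.4 in G1, 17.3 and 6.78 in G2, 0.958, 0.292 and 1.09 in wild type (single mutant), and 0.555, 1.01 and 0.239 in Control. G2 replicate 1 was as high as the G1 libraries, and G2 replicate 2 was below both. The log2 fold change against Control was 4.70 ± 0.64 in G1 (edgeR adjusted p = 0.000672) and 4.30 ± 0.63 in G2 (edgeR adjusted p = 0.00258), with the widest standard errors of the 7. Without G2 replicate 1 the G2 value was 3.43, and without Control replicate 2 it was 4.89 in G2 and 5.29 in G1.

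Vim (ENSMUSG00000026728.8, chromosome 2, 13573927 to 13582826, plus strand) encodes vimentin, the intermediate filament protein of mesenchymal cells, which dedifferentiated tubule cells also make. The values were 477 and 471 CPM in G1, 240 and 153 CPM in G2, 57.4, 47.0 and 59.6 CPM in wild type (single mutant), and 84.3, 59.1 and 66.8 CPM in Control. Both G1 libraries were nearly equal, and both G2 libraries lay between them and the other kidneys. Against Control the log2 fold change was 2.76 ± 0.21 in G1 (edgeR adjusted p = 5.39e-05) and 1.49 ± 0.21 in G2 (edgeR adjusted p = 0.00218).

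**Figure D2:**
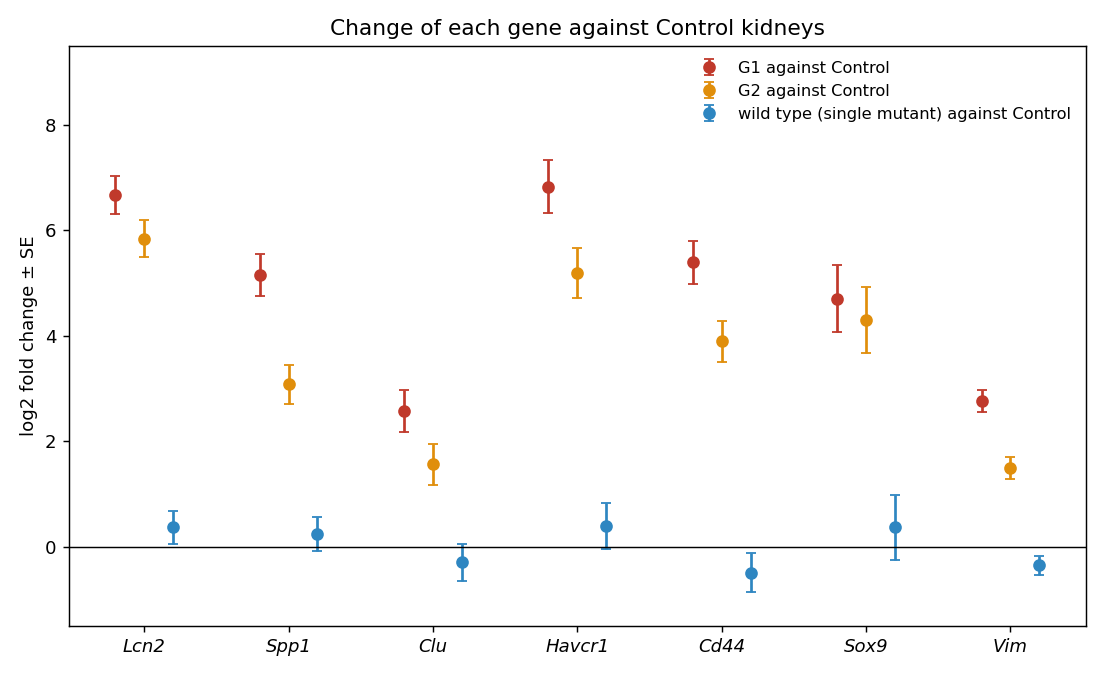
log2 fold change against Control, with its standard error, for G1, G2 and wild type (single mutant). G1 lies highest for each of the 7 genes, from 2.57 in Clu to 6.83 in Havcr1, and the wild type (single mutant) values lie between -0.50 and 0.40.

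Per kilobase of exon the order of the 7 by level was stable at both ends: in all 10 libraries Spp1 was first, Clu second, Cd44 sixth and Sox9 last. The middle changed. In wild type (single mutant) and Control, Vim was the third in all 6 libraries, at 11.5 ± 1.42 and 14.8 ± 2.72 CPM per kilobase (mean ± SD, n = 3 each). In G1 the mean levels were 140 CPM per kilobase for Havcr1, 109 for Lcn2 and 100.0 for Vim, and in G2 they were 45.1, 61.0 and 41.4. Both Havcr1 values lay above both Vim values in G1. The other pairs among these 3 genes overlapped in G1, and all pairs did in G2, so those neighbours were not separated beyond their spread.

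G2 kidneys had lower values than G1 kidneys for all 7 genes, but the difference was called in only 2. Spp1 averaged 5172 ± 2479 CPM in G2 and 21854 ± 5985 CPM in G1 (mean ± SD, n = 2 each), a log2 fold change of -2.08 ± 0.42 (95% confidence interval -3.02 to -1.14, edgeR adjusted p = 0.0263). Vim averaged 197 ± 61.0 CPM in G2 and 474 ± 4.37 CPM in G1, a log2 fold change of -1.27 ± 0.23 (-1.80 to -0.74, edgeR adjusted p = 0.0211). Of all genes tested, 2.88% were called lower in G2 than in G1 and 3.84% higher.

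Havcr1 and Cd44 missed the threshold narrowly, with log2 fold changes of -1.64 (95% confidence interval -2.71 to -0.57, edgeR adjusted p = 0.0729) and -1.495 (-2.39 to -0.60, edgeR adjusted p = 0.0571). Clu had -1.01 (-1.99 to -0.03, edgeR adjusted p = 0.193) and Lcn2 -0.83 (-1.59 to -0.08, edgeR adjusted p = 0.165). Sox9 had -0.41 (-1.79 to 0.98, edgeR adjusted p = 0.74), and it was the 1 gene whose G2 and G1 libraries overlapped. For the other 6 both G2 libraries lay below both G1 libraries, as they did in 26.7% of all genes tested. The calls of Spp1 and Vim were each lost without G1 replicate 1 (edgeR adjusted p = 0.0844 and 0.103), G1 replicate 2 (0.124 and 0.0985) or G2 replicate 2 (0.103 and 0.0801), and in a fit of G2 and G1 alone (0.092 and 0.0561). Without G2 replicate 1, or with DESeq2 or limma-voom, 4 of the 7 were called: Spp1, Vim, Havcr1 and Cd44.

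**Figure D3:**
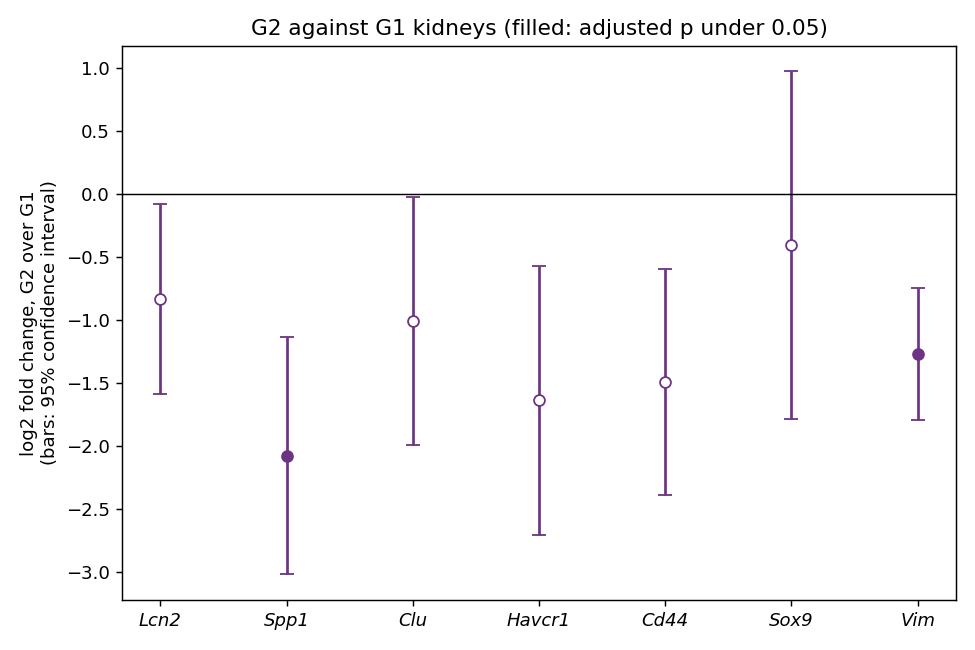
log2 fold change of G2 over G1 for the 7 genes, with 95% confidence intervals, filled where the adjusted p is under 0.05. All 7 points lie below 0, Spp1 at -2.08 and Vim at -1.27 are filled, and the interval of Sox9 crosses 0.

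The 2 libraries of each risk allele did not order the genes alike. In G2, replicate 1 was the higher for 6 of the 7, from 1.20 times in Clu to 2.77 times in Havcr1, whereas Lcn2 was 1.68 times higher in replicate 2. In G1, replicate 2 was the higher for the secreted proteins Lcn2, Spp1 and Clu, by 1.48 to 1.62 times, and replicate 1 for Havcr1, Cd44, Sox9 and Vim, by 1.01 to 1.42 times. Lcn2 and Havcr1, the genes with the highest folds, thus ran in opposite directions within both pairs. With 2 libraries per group there is no test of this.

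Between wild type (single mutant) and Control kidneys no difference was called in the 7 genes. The groups overlapped in each of the 7, where 4.08% of all genes tested did not overlap and were higher and 3.73% were lower. The test called 0 of 7, as were 0 of all genes tested (0.0%) in edgeR's quasi-likelihood test, where 724 genes had an unadjusted p under 0.05 and DESeq2 called 14. The log2 fold changes ran from -0.50 ± 0.37 in Cd44 to 0.40 ± 0.43 in Havcr1, with an edgeR adjusted p of 1 for each of the 7. The 95% confidence interval was -0.78 to 0.07 for Vim, the narrowest, and -1.03 to 1.77 for Sox9, the widest. Within wild type (single mutant), replicate 3 was the highest library for 6 of the 7 genes and replicate 1 for Havcr1.

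Other genes of injured tubules were taken from a list of 38 that excludes the 7 and was also chosen with earlier results of these data known. Against Control, with G1 and G2 averaged, 32 rose and 0 fell at a median log2 fold of 2.33, where 19.3% of all genes rose. In G2 against G1 11 were lower and 0 higher, where 2.88% of all genes were lower and 3.84% higher. With both alleles averaged against Control, the 3 with the lowest p were S100a11, a calcium-binding protein gene (log2 fold change 2.12 ± 0.13, edgeR adjusted p = 4.03e-05), the complement gene C3 (4.60 ± 0.30, edgeR adjusted p = 4.69e-05) and the monocyte chemokine gene Ccl2 (5.17 ± 0.37, edgeR adjusted p = 6.25e-05). C3 averaged 509 ± 225 CPM in G2 and 2838 ± 96.4 CPM in G1 (n = 2 each), with an edgeR adjusted p of 0.0106 for the difference.

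Proteins that bind the 7, or belong to their families, were listed as 43 partners, of which 42 were tested. With both alleles averaged against Control, 21 rose, 6 fell and 15 were not called, where 3441 of all 17823 genes (19.3%) rose and 3212 fell. The median log2 fold was 0.69. Sox4 and Itgb6 stand on both lists. Among the integrin chains that bind osteopontin, Itga5 (1.44 ± 0.16), Itgav (0.97 ± 0.11), Itgb1 (0.64 ± 0.11), Itga4 (1.60 ± 0.27), Itgb3 (1.47 ± 0.26) and Itga9 (0.67 ± 0.23) rose, while Itgb5, Itgb6 and Itga8 were not called at -0.01, 0.71 and 0.30. Itgav, the chain shared by several of these integrins, was at 190 ± 21.4 CPM in G2 and 383 ± 8.68 CPM in G1, and was called lower in G2 (-1.01 ± 0.14, edgeR adjusted p = 0.0112). Itga9 averaged 32.8 CPM in G2 but 16.3 CPM in G1, beside 16.3 CPM in wild type (single mutant) and 14.5 CPM in Control. For Itgb5 and Itga8 the mean of both alleles also joins unlike values. Itgb5 averaged 183 CPM in G2, 112 CPM in G1 and 144 CPM in Control, and Itga8 23.0, 10.9 and 12.9 CPM in the same order. Itgb6 averaged 101, 123 and 68.4 CPM.

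Several receptors that take up the secreted proteins fell. Lrp2, the endocytic receptor megalin that binds both NGAL and clusterin, was at 548 ± 24.5 CPM in G1 (n = 2), 819 ± 52.2 in G2 (n = 2), 1806 ± 108 in wild type (single mutant) (n = 3) and 1932 ± 228 in Control (n = 3), and fell against Control with log2 fold changes of -1.82 ± 0.15 in G1 and -1.24 ± 0.14 in G2. Slc22a17, another NGAL receptor, fell by 0.87 ± 0.16 in the mean of both alleles, and Vldlr, a lipoprotein receptor, by 0.57 ± 0.16. The related receptor gene Lrp8 was not called at 0.45 ± 0.23. Lrp2 also stands on the proximal tubule list, of which 20 of 20 genes fell in the mean of both alleles, at a median of -1.499, where 3212 of all 17823 genes tested fell.

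Of the family of Havcr1, Havcr2 (TIM-3, a leukocyte receptor) rose by 1.69 ± 0.52, Timd2 fell by 0.93 ± 0.27 and Timd4 was not called at -0.35 ± 0.52. Among the partners of CD44, the membrane linker genes Msn (1.44 ± 0.20) and Ezr (0.43 ± 0.08) rose and Rdx fell by 0.53 ± 0.10. Ezr was at 389 ± 0.584 CPM in G2 against 753 ± 62.9 CPM in G1 and 400.3 ± 10.2 CPM in Control, and its change in G2 against Control was -0.04 ± 0.10 (edgeR adjusted p = 0.795). The hyaluronan synthase gene Has2 was called higher at levels of at most 0.454 CPM in G1 and 0.324 CPM in G2, and Has3 was not called at 0.29 ± 0.25. Of the Sox genes, Sox4 (1.60 ± 0.25), Sox8 (3.18 ± 0.54) and Sox11 (3.73 ± 0.56) rose and Sox10 was not called at -0.30 ± 0.36. Of the filament genes related to Vim, Nes (1.84 ± 0.20) and Des (0.85 ± 0.18) rose, as did the linker Plec (1.05 ± 0.11), and Synm was not called at 0.02 ± 0.16. All these are log2 folds, with SE, of both alleles averaged against Control, except those given for G2 alone.

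Among markers of other cells that carry some of the 7 genes, some rose with them and others did not. The part of these cells in the values above was not tested. The counts of marker genes given next stand against 3441 genes higher and 3212 lower of all 17823 in the same comparison (19.3% higher). Of 15 macrophage genes, 13 rose and 0 fell in the mean of both alleles against Control, and their summed level was 811 to 1033 CPM in G1, 750 to 1155 in G2, 149 to 183 in wild type (single mutant) and 165 to 233 in Control. The leading genes were Mrc1, Lyz2 and Itgam, with log2 fold changes of 2.53, 3.20 and 3.01. Of 13 neutrophil genes, 6 were tested and 5 rose, with Csf3r, Mmp9 and Mmp8 leading. The summed level of the 13 reached 9.65 CPM in G1, 8.15 in G2, 3.10 in wild type (single mutant) and 3.95 in Control. The part of these cells in the values of Lcn2 was not tested. The granule genes Camp and Elane were at 0 counts in G1, Ngp and Mpo in G2, Camp, Elane and Mpo in wild type (single mutant), and Ngp in Control.

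The summed level of 10 fibroblast and mesenchyme genes was 760 to 955 CPM in G1, 1554 to 2139 in G2, 408 to 434 in wild type (single mutant) and 378 to 521 in Control. The genes did not move alike. In G1 against Control 3 were called higher (Col1a1, Col1a2 and Col3a1), 2 lower (Dcn and Lum) and 5 were not called. In G2 against Control 5 were higher, 0 lower and 5 not called. Of all genes tested, 19.5% were higher in G1 and 12.7% in G2. In G2 against G1, 3 of 10 were higher and 0 lower, where 3.84% of all genes tested were higher and 2.88% lower. The part of these cells in the values of Vim was not tested. Col1a1, the type I collagen gene, was at 379 ± 127 CPM in G2 and 162 ± 41.6 CPM in G1, a difference that was not called (edgeR adjusted p = 0.0696). Endothelial genes summed to 305 to 337 CPM in G1, 567 to 849 in G2, 415 to 769 in wild type (single mutant) and 561 to 608 in Control. Of 9, 7 fell and 0 rose in G1 against Control, where 3184 of all 17823 genes tested fell and 3472 rose. In G2 against Control 0 of the 9 were called, where 1579 of all genes fell and 2264 rose. Between the alleles, 5 of the 9 were called higher in G2 than in G1 (3.84% of all genes). The summed level of 6 parietal epithelium genes, a glomerular layer that can express Cd44, was 668 to 779 CPM in G1, 299 to 400.2 in G2, 156 to 194 in wild type (single mutant) and 181 to 226 in Control. Of the 6, 5 were called higher in G1 against Control and 2 in G2 against Control, where 19.5% and 12.7% of all genes tested were. In the mean of both alleles 5 of 6 rose, among them Ncam1, Cldn3 and Cldn1. Of 10 podocyte genes, 1 fell and 9 were not called.

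The other marker lists cover tubule segments and T and B cells. They do not show which cells expressed the 7 genes, and that was not tested. Proximal tubule genes summed to 10865 to 15617 CPM in G1, 29633 to 48038 in G2, 54077 to 82523 in wild type (single mutant) and 51837 to 72215 in Control, so that every library held tubule RNA, with the lowest sums in G1 and the next in G2. A large part of the sum is Kap, which averaged 1994 CPM in G1 and 22512 CPM in G2. Gene by gene, 5 of 20 were called higher in G2 than in G1, 2 lower and 13 not called. Of all genes tested, 3.84% were higher and 2.88% lower. The phosphate transporter gene Slc34a1 was at 1379 ± 182 CPM in G1, 2845 ± 395 in G2, 7735 ± 777 in wild type (single mutant) and 7076 ± 318 in Control. Of 9 thick ascending limb genes, a segment that expresses Spp1, 2 rose, 5 fell and 2 were not called in the mean of both alleles, with the claudin gene Cldn16 at 1.95 ± 0.13 and the growth factor gene Egf at -1.40 ± 0.17. In that mean none of the 7 collecting duct genes was called, and 6 of 13 T and B cell genes rose. In G1 against Control 2 of the 7 collecting duct genes were called lower, where 3184 of all 17823 genes fell. They were Aqp3 (-1.56 ± 0.38, edgeR adjusted p = 0.0112) and Hsd11b2 (-0.91 ± 0.24, edgeR adjusted p = 0.0182). In G2 against Control neither was called, at -0.07 and 0.10.

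**Figure D4:**
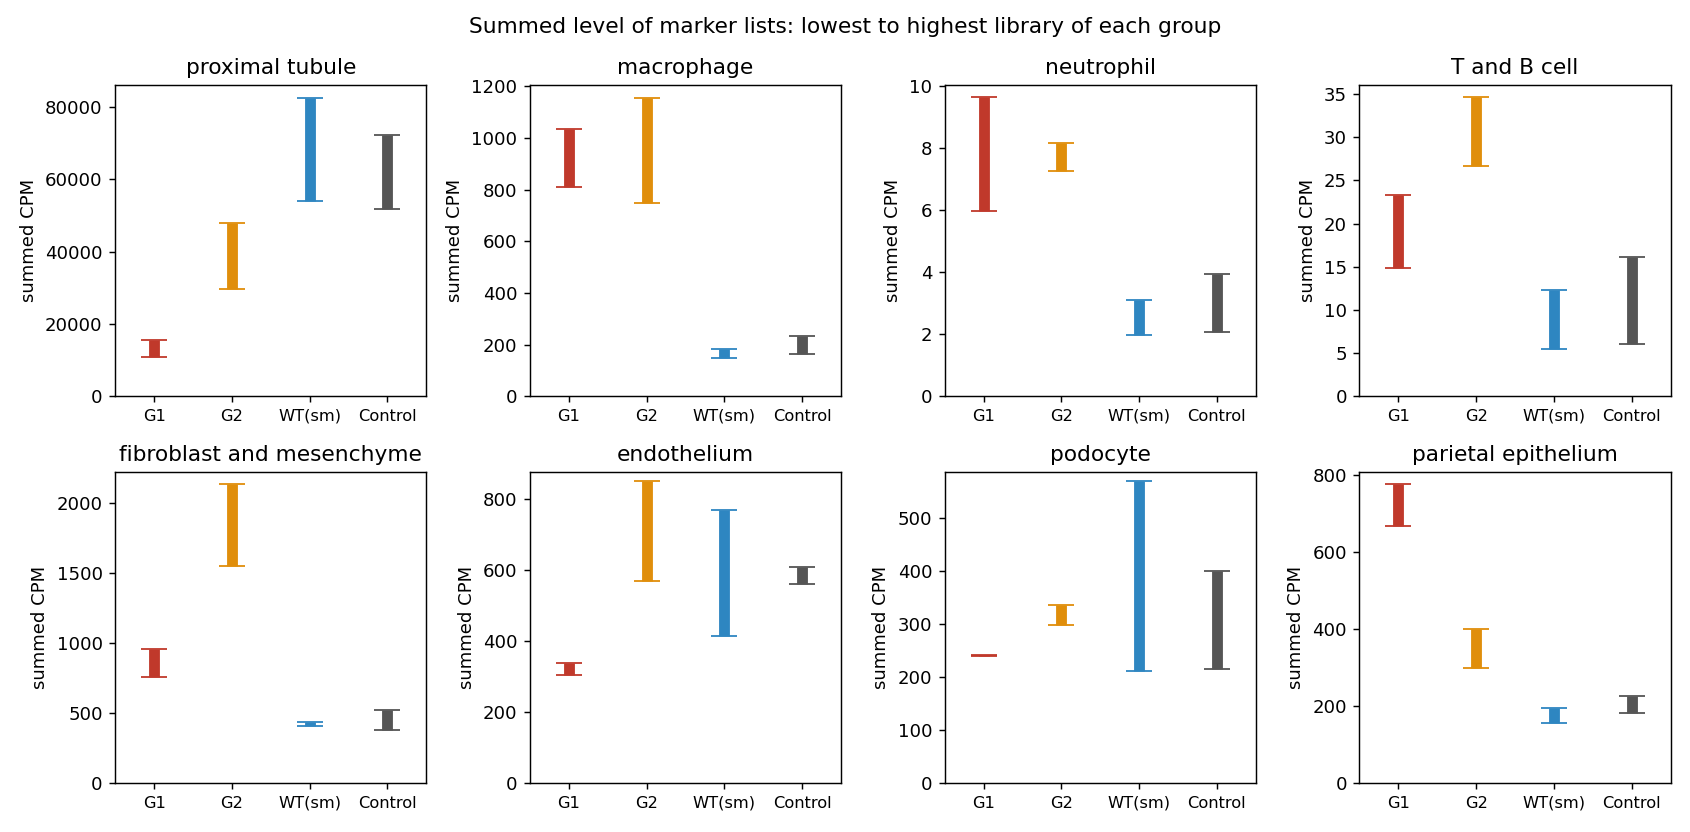
Summed CPM of 8 marker lists, drawn from the lowest to the highest library of each group on axes that start at 0. Proximal tubule genes are lowest in G1, macrophage genes are higher in G1 and G2 than in the other kidneys, and fibroblast genes are highest in G2, where they reach 2139 CPM.

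The genes with the most similar course over the 10 libraries were found by the root-mean-square difference of log2 CPM, each centred on its own mean, among the 14355 genes that averaged 1 CPM or more. This is a description, in which the step between risk allele and other kidneys weighs most. Close to Vim ran Gpc3 (0.18) and 2200002D01Rik (0.19), and nearest to Clu were Pirb (0.22), Coro1a (0.24) and Oas2 (0.24). Cd44 ran closest to Vcam1 (0.33), Col17a1 (0.34) and Aoc1 (0.39), Spp1 to Gxylt2 (0.35), Ndc80 (0.39) and Cdk1 (0.44), and Sox9 to Stra6 (0.43), Cfi (0.48) and Tmem121 (0.49). Havcr1 had Spaca7 (0.40), Orm2 (0.58) and D630011A20Rik (0.59), and Lcn2 had Ccl2 (0.64), Sprr2f (0.69) and Serpina10 (0.69) at greater distances. Among the 7 themselves the closest pair was Clu and Vim (0.45), followed by Cd44 and Spp1 (0.58), and the farthest was Clu and Lcn2 (1.91).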

How the data were processed

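The authors deposited 1 table per library of unnormalized read counts for 46517 Ensembl gene IDs, with versions. The submitters' processing notes name CASAVA 1.8.2 and FastQC, then Trim Galore, the aligner STAR 2.4.1d and the counter HTSeq 0.6.1, on GRCm38. They give no settings, annotation release or strand option, so reads of overlapping genes on either strand cannot be told apart. Symbols and exon lengths are from GENCODE M21 (46005 of 46517 IDs matched without version). The promoter sequences are RefSeq's (GRCm38.p6), listed for 5 of the 7 genes.

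edgeR 4.0.16 in R 4.3.3 was used with TMM scaling, filterByExpr (minimum count 10) and 1 quasi-likelihood fit over all 10 libraries with a mean per group. Adjusted p-values are Benjamini-Hochberg over the 17823 genes tested. SE came from the fold and its F statistic. The fit was tested on simulated data. Alternatives used DESeq2 1.42.0 and limma 3.58.1. Genes named from the lists are the 3 with the lowest p in both alleles averaged against Control, and partners of the 7. Some genes that these rules name are not reported here. The members and lists were chosen with earlier results of these data known. Replicates are numbered by accession and are not paired.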

Additional observations from a re-analysis of the deposited data

Results flagged for a closer look

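For Spp1 and Vim the difference between the changes of the alleles against Control passed the threshold when tested itself. The log2 fold change of G2 over G1 was -2.08 for Spp1 and -1.27 for Vim (adjusted p = 0.0263 and 0.0211 in edgeR's quasi-likelihood test). Both calls were lost without G1 replicate 1 (edgeR adjusted p = 0.0844 for Spp1 and 0.103 for Vim), G1 replicate 2 (0.124 and 0.0985) or G2 replicate 2 (0.103 and 0.0801), and in a fit of G2 and G1 alone (0.092 and 0.0561). Both G2 libraries lay below both G1 libraries in each of these genes, as they did in 26.7% of all genes tested.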

How the results depend on the processing

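The 17 alternatives were other scalings, filters and tests, a fit of the compared groups alone, and leaving out each library. All 7 genes stayed called higher in every comparison of risk allele kidneys with Control or wild type (single mutant), except Clu in G2 against Control, whose call was lost in 4 alternatives. Between G2 and G1 the number called lower was 2. It was 4 without a low-count filter, with DESeq2 and with limma-voom, and 0 with those groups alone, and leaving out a library gave 0 to 4. A group left with a lone sample was assumed to vary like the other groups. Signs turned in 3 uncalled log2 folds when a library was left out, which gave -1.31 to 0.079 for Sox9 in G2 against G1 and, in wild type (single mutant) against Control, -0.029 to 0.42 for Spp1 and -0.59 to 0.14 for Clu. The cause was not tested. Without G2 replicate 1 the G2 folds against Control were 5.42 in place of 8.46 for Spp1, 8.98 in place of 14.9 for Cd44 and 10.8 in place of 19.7 for Sox9, and the log2 fold of Spp1 in G2 against G1 was -2.75. Without Control replicate 2 the fold of Sox9 in both alleles averaged was 34.0 in place of 22.7. Over all genes, the number called higher ranged from 2553 to 6037 for both alleles averaged against Control (3441 in the report), 2130 to 5687 for G1 (3472), 1173 to 4218 for G2 (2264) and 11 to 1222 for G2 against G1 (684), and the number lower from 1600 to 3565 (3212), 1267 to 3569 (3184), 727 to 2312 (1579) and 11 to 1277 (514) in the same order of comparisons. Library totals alone moved the median of all genes by 0.27 (log2) in both alleles averaged against Control. No paired analysis was possible because the labels give no replicate numbers. Depth limits Sox9 most, with 6 to 32 counts in wild type (single mutant) and Control libraries.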
